A study of Mus musculus with 9 samples.

Results

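Loss of a chemokine receptor was compared with loss of one of its ligands in long-term haematopoietic stem cells (LT-HSCs), gene by gene. The samples compared were 3 libraries from mice lacking the receptor gene Cxcr3 (Cxcr3-/-) and 3 from mice lacking the ligand gene Cxcl10 (Cxcl10-/-), which makes 6 of the 9 libraries in the series. The other 3, from wild-type (WT) mice, entered the fit for its estimate of spread and were used to say which knockout had moved away from WT. Every mouse was a C57BL/6 animal aged 6 to 8 weeks. Each library came from 500 to 800 bone marrow cells of 1 mouse, which the sort had chosen for Sca-1, c-Kit and CD150 and against lineage markers, CD48 and CD135. Apart from the deleted gene the labels give the 3 genotypes the same description, with no treatment, sex, litter or day of preparation, and they do not describe the deleted alleles. Differences below are Cxcr3-/- minus Cxcl10-/-, so "higher" means higher in cells without the receptor and "lower" means higher in cells without the ligand.

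CXCR3 is a G protein-coupled receptor that binds CXCL9, CXCL10 and CXCL11, chemokines that many cell types release in response to interferon. It is best known for drawing activated T and NK cells into inflamed tissue. LT-HSCs reside in the bone marrow next to sinusoidal endothelium and stromal cells that make CXCL12 and stem cell factor, and most of them are out of the cell cycle at any moment. The series concerns the part of both genes in self-renewal and differentiation of these cells, and this comparison asks whether losing the receptor and losing 1 ligand leave the same transcriptome.

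Of the 22322 genes in the deposited table, 10866 averaged 1 FPKM or more across the 9 libraries and were tested with edgeR's quasi-likelihood test on expected counts. FPKM, used below for levels, is a fragment count scaled to transcript length and library size. A gene was called at a Benjamini-Hochberg adjusted p under 0.05 over all 10866 genes. Log2 differences are given ± the standard error (SE) of that fit, with 3 libraries per group. Expected counts summed to between 12098498 and 15868608 in the 6 knockout libraries. The Cxcl10-/- libraries were less alike (median Pearson r across genes 0.886 on log2(FPKM + 1)) than the Cxcr3-/- (0.954) or WT libraries (0.968). They resembled each other about as much as they resembled WT (median r 0.895) or Cxcr3-/- libraries (0.881). More of the tested genes were at 0 counts in Cxcl10-/- replicates 1 to 3, at 352, 156 and 270. In Cxcr3-/- 61, 82 and 68 were at 0, and in WT 87, 63 and 45. Values of 0 in single Cxcl10-/- libraries below stand beside these numbers. Cxcr3-/- replicates 1 and 3 stood apart in another way: they listed 17605 and 18346 genes above 0, against 14618 in Cxcr3-/- replicate 2, 12561 to 13910 in Cxcl10-/- and 14510 to 16023 in WT. Olfactory receptor genes, which marrow is not known for, showed the same split, a family chosen after its values were seen. Of the 1195 in the table, 923 and 1037 were above 0 in Cxcr3-/- replicates 1 and 3, against 419 in replicate 2, 213 to 355 in Cxcl10-/- and 422 to 640 in WT. Main results are therefore also given with Cxcr3-/- replicate 2 as the only library of its group, a fit added after the data were seen, in which the lone library is assumed to vary like the others.

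The deleted genes were looked at first. In Cxcr3-/- replicates 1 to 3, Cxcl10 (ENSMUSG00000034855) had 112, 553 and 176 counts, while all Cxcl10-/- libraries had 0. It was at least 299-fold higher without the receptor, taking a floor of 3 counts over the Cxcl10-/- group (edgeR adjusted p = 0.00677, no overlap). As Cxcl10 is the gene deleted in Cxcl10-/-, its 0 counts there were given by the design. Its call between the knockouts is therefore a check of the Cxcl10-/- labels only. WT held 36, 84 and 3 counts. The difference from WT was 2.77 ± 1.10 for Cxcr3-/- and was not called (edgeR adjusted p = 0.744). Cxcr3 (ENSMUSG00000050232) had 0 counts in all 6 knockout libraries and 0, 0 and 8 in WT, so its level cannot check the Cxcr3-/- labels. Cxcl9 (ENSMUSG00000029417), an interferon-induced ligand encoded beside Cxcl10, stood at 1.19, 1.92 and 0.17 FPKM in Cxcr3-/- and 3.60, 4.73 and 4.67 in Cxcl10-/-. The groups did not overlap, but the difference of -1.96 ± 1.07 was not called (edgeR adjusted p = 0.275). Cxcl11 (ENSMUSG00000060183), with 5 counts or fewer per library, was not tested.

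The knockouts differed widely, and in most of the genes that differed it was the Cxcl10-/- libraries that stood away from WT. edgeR called 1142 genes, 10.5% of those tested: 554 were higher without the receptor (5.1%) and 588 were lower (5.41%). At least 2-fold differences were seen in 759 of them and at least 4-fold differences in 213. The median over all tested genes was -0.05. Of the called genes 1088 had no overlap between the 3 Cxcr3-/- and the 3 Cxcl10-/- libraries, as did 29.1% of all tested genes. Against WT, the same fit called 785 genes (7.22%) for Cxcl10-/-, of which 383 were higher (3.52%) and 402 lower (3.7%), and 0 for Cxcr3-/-, where 681 had an unadjusted p under 0.05. For Cxcr3-/- against WT, DESeq2 called 68 genes, limma on log2(FPKM + 1) 0, limma-voom with 1 weight per genotype 42, and edgeR without the filter on low genes 38 of 20476. These comparisons share the WT libraries, and each shares a knockout group with the comparison of the knockouts.

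The place of WT between the knockouts was measured for each called gene on the log2 scale. WT lay in the part of the interval next to Cxcr3-/- (above 0.667 of the way from Cxcl10-/-) in 775 of the 1142 genes, or 67.9%. It lay next to Cxcl10-/- (below 0.333) in 49 genes (4.29%) and between these limits in 318 (27.8%). Over all tested genes the shares were 58.1%, 26.3% and 15.6%. The class next to Cxcr3-/- held 412 of the 554 genes that were higher and 363 of the 588 that were lower. In limma on log2(FPKM + 1) 1359 genes were called (12.5%), of which 37.5% were higher, against 48.5% in edgeR; 936 (8.61%) were called by both in the same direction. The count fell to 423 without Cxcr3-/- replicate 1, to 517 without Cxcr3-/- replicate 3 and to 33 with Cxcr3-/- replicate 2 alone, of which 25 had WT next to Cxcr3-/-. It was also 423 when the WT libraries were left out of the fit.

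**Figure D1:**
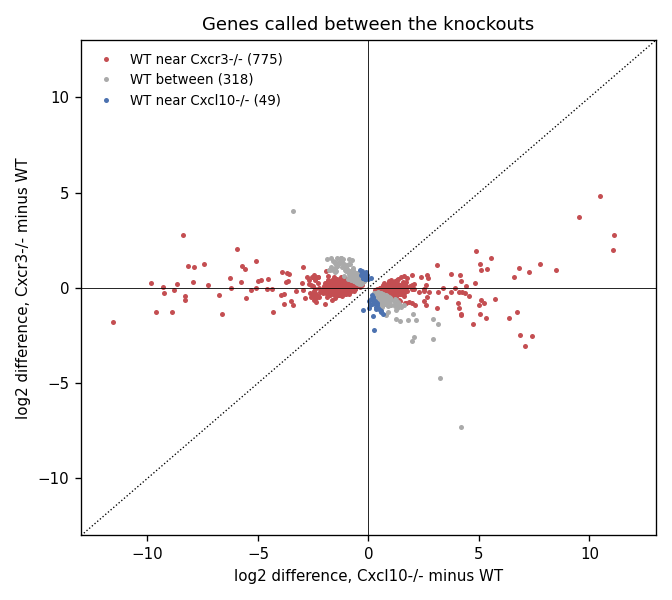
Each point is 1 of the 1142 called genes. The x axis is the log2 difference of Cxcl10-/- from WT and the y axis that of Cxcr3-/- from WT, both from edgeR with 3 libraries per group; values of genes at 0 counts in a group depend on the prior count. WT classes follow from the values plotted. The 775 red points, with WT near Cxcr3-/-, lie along the horizontal axis, and the 49 blue points, with WT near Cxcl10-/-, lie close to the vertical axis.

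Transcripts of the mitochondrial genome were all higher without the receptor. That genome encodes 13 proteins, all core subunits of the respiratory chain and ATP synthase, and all 13 transcripts were measured and called higher in Cxcr3-/- (100% against 5.1% of tested genes), with a median of 1.57. mt-Atp6, an ATP synthase subunit and the most abundant transcript of the table, stood at 38060, 40994 and 40201 FPKM in Cxcr3-/- and at 10080, 10067 and 7907.3 in Cxcl10-/-. The difference was 2.12 ± 0.09 (edgeR adjusted p = 2.85e-07). WT held 56139, 52259 and 48794 FPKM, so it was the Cxcl10-/- libraries that lay far below the rest. The cytochrome b gene mt-Cytb was higher by 1.81 ± 0.10, and the cytochrome oxidase genes mt-Co3, mt-Co2 and mt-Co1 by 1.42 ± 0.07, 1.32 ± 0.08 and 1.06 ± 0.07. mt-Atp8, which overlaps mt-Atp6 on the same transcript so that reads may be divided between them, was higher by 2.52 ± 0.26.

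**Figure D2:**
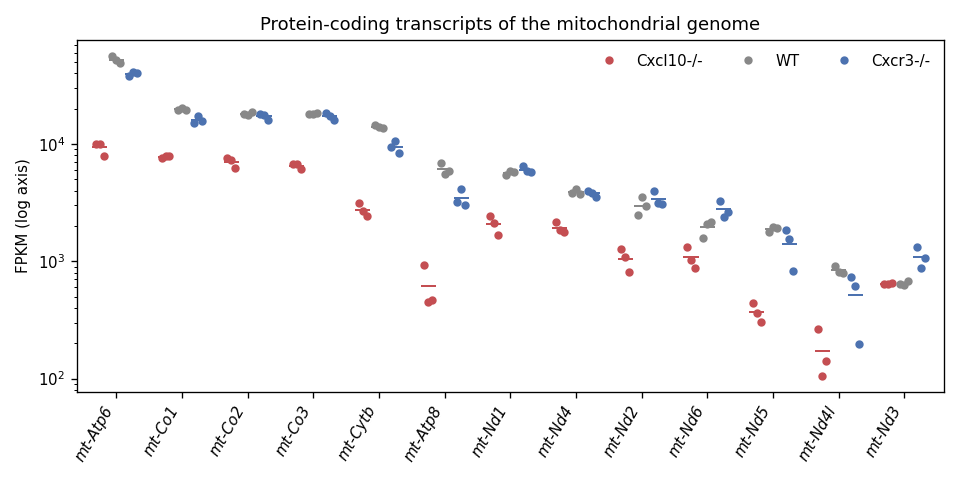
FPKM (log axis) of the 13 protein-coding mitochondrial transcripts; each dot is a library, 3 per genotype, and each line is the mean. Every Cxcl10-/- library lies below all others for 11 of them. For mt-Nd3 Cxcl10-/- overlaps WT and Cxcr3-/- lies above, and for mt-Nd4l 1 Cxcr3-/- library falls among the Cxcl10-/- ones.

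A single complex I gene, mt-Nd3, departed from that picture. It stood at 1324.8, 879.89 and 1077.8 FPKM in Cxcr3-/-, at 644.47, 637.8 and 651.85 in Cxcl10-/- and at 638.58, 631.69 and 678.4 in WT. Cxcl10-/- and WT overlapped, and Cxcr3-/- was above both by 0.78 ± 0.16 and 0.69 ± 0.16 (edgeR adjusted p = 0.0117 and 0.552). mt-Nd3 had a difference of -0.025 once a trend with GC content was removed, and mt-Nd4l was the only one of the 13 whose call ended in a fit with 1 library left out. The mitochondrial share of all counts was 10.8 ± 0.479% (SD, n = 3) in Cxcr3-/-, 3.89 ± 0.287% in Cxcl10-/- and 12.9 ± 0.258% in WT (Cxcr3-/- against Cxcl10-/-, exact permutation test, two-sided p = 0.1, the smallest that 3 against 3 allow). With Cxcr3-/- replicate 2 alone the median of the 13 was 1.55 and 10 were called. With the GC trend removed the median was 1.04.

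Respiratory chain subunits encoded in the nucleus, and the proteins of the mitochondrial ribosome that translates the 13, were called mostly in the other direction. Of 80 tested nuclear subunits 19 were lower in Cxcr3-/- and 5 higher (background 5.41% and 5.1%), with a median of -0.26. The complex I gene Ndufa8 stood at 105.75, 176.46 and 170.3 FPKM in Cxcr3-/- and 510.68, 512.2 and 617.93 in Cxcl10-/-, a difference of -1.83 ± 0.23. WT held 260.45, 194.1 and 239.04 FPKM, between the knockouts. Uqcrc1 of complex III was lower by -1.23 ± 0.17, and Ndufs3 and Ndufb10 of complex I by -1.19 ± 0.18 and -1.19 ± 0.19. Atp5g2, which encodes the ATP synthase ring subunit, was among the 5 that were higher (0.89 ± 0.17). Calls of 16 of the 24 ended in some fit with 1 library left out; Ndufa8, Uqcrc1, Ndufs3, Ndufb10 and Atp5g2 kept theirs.

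Of 78 mitochondrial ribosomal protein genes 25 were lower in Cxcr3-/- and 0 higher (background 5.41% and 5.1%), with a median of -0.60. Mrps34 stood at 17.09, 47.35 and 34.08 FPKM in Cxcr3-/-, at 122.76, 102.35 and 121.66 in Cxcl10-/- and at 45.75, 40.19 and 31.95 in WT (-1.78 ± 0.36, edgeR adjusted p = 0.0108). The lowest Cxcl10-/- library was thus above every other library. Mrps21 was lower by -0.86 ± 0.16, Mrpl24 by -1.03 ± 0.20 and Mrpl17 by -1.10 ± 0.22. Without Cxcr3-/- replicate 1, 7 nuclear subunits and 6 mitochondrial ribosomal genes were called lower. Without Cxcr3-/- replicate 3 the ribosomal count was 8, and without Cxcl10-/- replicate 3 the nuclear subunit count was 11. With Cxcr3-/- replicate 2 alone 0 and 0 were called, with medians of -0.15 and -0.47. Genes that maintain and process mitochondrial RNA showed little of either change. Of 34 tested, 1 was called (Hsd17b10, an RNase P subunit gene, -1.02), and the median was -0.12. That was 2.94% of the list, against 10.5% of all tested genes.

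Genes of G2 and mitosis, the programme that builds the spindle and divides the cell, were the other large group that was higher without the receptor. All 61 in the table were tested; 29 were higher (47.5% against 5.1%), 0 were lower and the median was 1.71. All 29 had WT next to Cxcr3-/-. The median difference of the 61 from WT was -1.59 for Cxcl10-/- and 0.16 for Cxcr3-/-. The sum of their FPKM was 2547, 2423 and 2050 in Cxcr3-/-, 690, 1001 and 1103 in Cxcl10-/- and 1883, 2420 and 2102 in WT. In bulk samples, fewer cells in division and less of these RNAs per dividing cell cannot be told apart.

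Nusap1, a microtubule-bundling protein of the spindle, stood at 39.28, 36.97 and 25.97 FPKM in Cxcr3-/-, at 0.35, 2.23 and 0.26 in Cxcl10-/- and at 22.06, 35.11 and 50.59 in WT. The difference was 5.20 ± 0.67 (edgeR adjusted p = 0.00137). Ccnb1, which encodes cyclin B1, stood at 53.98, 43.77 and 39.84 FPKM against 0, 2.94 and 4.22 (4.34 ± 0.88). Both genes were near WT in Cxcr3-/- and close to absent in at least 1 Cxcl10-/- library. The kinetochore genes Knl1 (3.11 ± 0.44) and Spc25 (2.14 ± 0.34), the cohesin protector gene Sgo2a (3.56 ± 0.64) and the cytokinesis gene Anln (4.28 ± 0.94) followed. More abundant members differed less: Cks2, a small partner of cyclin-dependent kinases, by 1.83 ± 0.23, Top2a, the topoisomerase of mitotic chromosomes, by 1.86 ± 0.29, and Cdk1, the kinase of mitotic entry, by 1.70 ± 0.30. Cdk1 stood at 98.09, 76.1 and 76.83 FPKM in Cxcr3-/- and 20.58, 33.9 and 24.94 in Cxcl10-/-, so its transcripts were reduced there and not lost.

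Calls of 16 of the 29 held in every fit with 1 library left out, those of Nusap1, Ccnb1, Knl1, Spc25, Sgo2a, Anln, Cks2, Top2a and Cdk1 among them. The count was 17, 19 or 18 without Cxcr3-/- replicate 1, 2 or 3. With Cxcr3-/- replicate 2 alone it was 3, while the median was 1.73. Members that were not called included Ube2c (1.59, edgeR adjusted p = 0.0571) and Ckap2l (2.32, 0.0582).

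The promoters of Top2a and Cdk1 are shown because their transcripts moved together and because promoters of this group are known for a pair of short elements. These are the CCAAT box, bound by NF-Y, and the cell cycle genes homology region TTTGAA, where repressor complexes sit in resting cells. Each is RefSeq sequence on GRCm38.p6, the 250 bases before the transcription start, 5′ to 3′ along the gene's own strand, with every CCAAT or TTTGAA on either strand in capitals (ATTGG and TTCAAA are the other strands). Top2a lies at chr11:99024190-99024439 and Cdk1 at chr10:69352913-69353162, both on the minus strand.
Top2a: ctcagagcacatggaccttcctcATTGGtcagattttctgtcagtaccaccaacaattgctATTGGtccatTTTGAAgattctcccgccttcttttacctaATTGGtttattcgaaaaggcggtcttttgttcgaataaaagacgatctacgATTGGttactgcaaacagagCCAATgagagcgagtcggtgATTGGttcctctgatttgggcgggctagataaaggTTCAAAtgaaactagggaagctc
Cdk1: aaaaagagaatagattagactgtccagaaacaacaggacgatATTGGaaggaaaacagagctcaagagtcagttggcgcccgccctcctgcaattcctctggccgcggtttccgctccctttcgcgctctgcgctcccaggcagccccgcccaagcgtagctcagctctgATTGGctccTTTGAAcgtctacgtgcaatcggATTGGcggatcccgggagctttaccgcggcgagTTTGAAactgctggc
Top2a holds 6 CCAAT and 2 TTTGAA matches and Cdk1 holds 3 and 2, with no base shared between the motifs. Of the 50 tested genes of G2 and mitosis with a promoter in the table, 37 (74%) hold CCAAT, 19 (38%) hold TTTGAA and 17 (34%) hold both. Among all 8759 tested genes with a promoter the shares are 41.0%, 13.4% and 6.13%. The 24 of these genes that were called do not stand out from the list: 17 hold CCAAT and 8 hold TTTGAA.

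S phase genes differed less than those of mitosis. Of 57 tested, 7 were higher (12.3% of the list, against 5.1% of all tested genes) and 0 lower, with a median of 0.25. E2f8, an E2F family repressor gene, kept its call in every fit with 1 library left out (2.78 ± 0.46), while the replication genes Mcm2, Rrm2, Uhrf1, Rpa1, Mcm4 and Hells did not. The sum of their FPKM overlapped between the knockouts, at 2682 to 3135 in Cxcr3-/- and 2591 to 2903 in Cxcl10-/-. Of 32 tested replication-dependent histone genes 6 were higher and 2 lower, with a median of 0.70. With 1 library left out the median ran from 0.28 to 1.87 and the number higher from 2, without Cxcr3-/- replicate 1, to 7, and 6 of the 8 calls ended in some such fit. H2ac4, which encodes a histone H2A, stood at 30.03, 23.31 and 6.05 FPKM in Cxcr3-/- and had 0 counts in Cxcl10-/-, and so was at least 139-fold higher without the receptor. H4c4, a histone H4 gene, was higher by 2.36 ± 0.42 and kept its call. Histone genes have near-identical copies and mostly lack poly(A) tails, so the division of reads among them is uncertain.

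**Figure D3:**
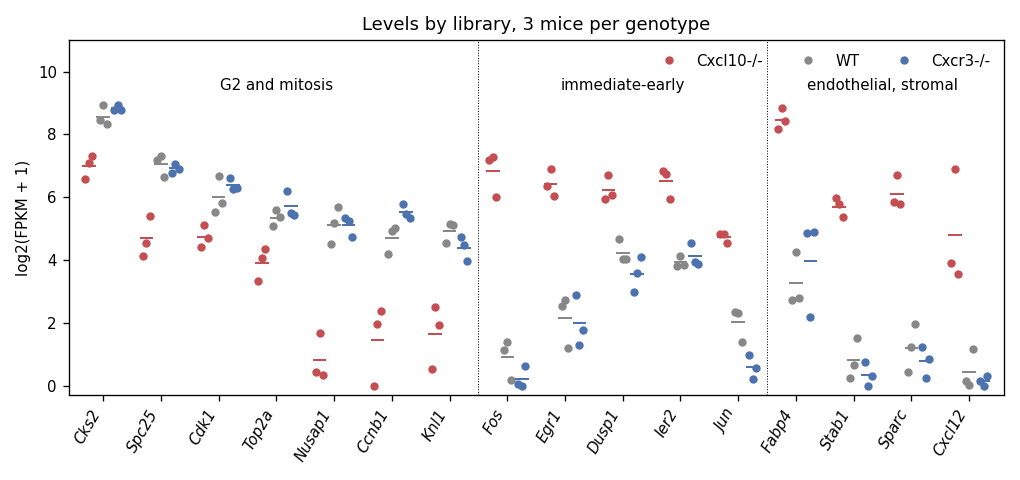
Level of 16 genes in each library as log2(FPKM + 1); each dot is a library, 3 per genotype, and each line is the mean. For the 7 genes of G2 and mitosis Cxcl10-/- lies below both other genotypes, and for the 5 immediate-early and 4 endothelial or stromal genes it lies above them.

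Immediate-early genes were mostly lower without the receptor. They encode transcription factors and feedback regulators that cells switch on within minutes of a growth factor, adhesion or handling signal, without new protein synthesis. Of 23 tested out of 32 in the table, 14 were lower in Cxcr3-/- and 1 was higher (background 5.41% and 5.1%), with a median of -1.99. Fos, the AP-1 subunit gene, stood at 0.04, 0 and 0.55 FPKM in Cxcr3-/- and at 144.06, 156.12 and 63.77 in Cxcl10-/- (-9.32 ± 1.01, edgeR adjusted p = 0.000667). WT held 1.22, 1.62 and 0.13 FPKM, so Fos was high in Cxcl10-/- and near 0 elsewhere. Fos and 1 other member reached the mean of 1 FPKM only through the Cxcl10-/- libraries and had to differ once tested.

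Members that WT also expresses showed the same direction. Dusp1, a phosphatase that ends MAP kinase signals, stood at 6.94, 11.02 and 16.04 FPKM in Cxcr3-/-, at 61.14, 104.43 and 66.12 in Cxcl10-/- and at 24.3, 15.28 and 15.54 in WT (-2.77 ± 0.37). Ier2 was lower by -2.44 ± 0.30, the transcription factor gene Egr1 by -4.64 ± 0.60 and the AP-1 gene Jund by -2.95 ± 0.53. Jun, the partner of Fos, stood at 0.98, 0.16 and 0.49 FPKM in Cxcr3-/-, at 27.79, 27.79 and 22.41 in Cxcl10-/- and at 4.08, 4.05 and 1.61 in WT (-5.57 ± 0.63). Jun thus had WT between the knockouts: its difference from WT was 2.90 for Cxcl10-/- (edgeR adjusted p = 0.0101) and -2.67 for Cxcr3-/- (0.552). The 1 member that was higher, Myc, a growth and cell cycle regulator, stood at 92.53, 63.65 and 83.6 FPKM in Cxcr3-/- and at 42.79, 43.86 and 36.77 in Cxcl10-/- (0.97 ± 0.22). Fos, Jun, Ier2, Egr1, Dusp1 and Jund kept their calls in every fit with 1 library left out, while that of Myc ended without Cxcr3-/- replicate 1 (edgeR adjusted p = 0.0769) or 3 (0.0608), in a range of 0.018 to 0.0769 over the 9 such fits. The number called lower was 6 without Cxcr3-/- replicate 1 and 3 with Cxcr3-/- replicate 2 alone, with a median of -1.99.

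The promoter of Dusp1 is shown because immediate-early promoters are known for the cAMP response element TGACGTCA, bound by CREB and ATF factors that signals switch on within minutes. It is RefSeq sequence on GRCm38.p6, the 250 bases before the start at chr17:26508473-26508722 on the minus strand, 5′ to 3′, with the element in capitals.
Dusp1: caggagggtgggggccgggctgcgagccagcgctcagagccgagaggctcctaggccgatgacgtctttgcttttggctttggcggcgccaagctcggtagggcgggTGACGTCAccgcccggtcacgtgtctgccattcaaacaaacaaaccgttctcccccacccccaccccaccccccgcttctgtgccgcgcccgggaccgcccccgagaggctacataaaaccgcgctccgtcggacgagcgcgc
TGACGTCA is a palindrome and reads the same on both strands. It was found in 4 of the 20 tested immediate-early promoters in the table (20%), and in 2.99% of all 8759. Among the 12 that were called it was found in 3.

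Some genes of marrow endothelium and stroma were also lower without the receptor, and most of these were expressed in Cxcl10-/- and close to 0 in both other genotypes. Among 37 endothelial genes, 31 were tested, of which 11 were lower, 0 were higher (all tested genes 5.41% and 5.1%) and the median was -1.84. Of 34 stromal and bone genes 15 were tested; 7 were lower, 1 was higher (Runx2, an osteoblast and progenitor transcription factor gene, 0.83 ± 0.23) and the median was -3.04. In each list 6 members reached a mean of 1 FPKM only through the Cxcl10-/- libraries and so had to differ, which makes these counts and medians descriptions only. The summed FPKM of the endothelial list was 914 to 1097 in Cxcl10-/-, 215 to 292 in Cxcr3-/- and 208 to 260 in WT. That of the stromal list was 441 to 971, 165 to 218 and 159 to 207.

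The scavenger receptor gene Stab1, typical of sinusoidal endothelium, stood at 61.81, 53.71 and 40.11 FPKM in Cxcl10-/-, at 0.7, 0 and 0.24 in Cxcr3-/- and at 0.19, 0.6 and 1.9 in WT (-7.95 ± 1.07, edgeR adjusted p = 0.00174). Its relative Stab2 differed by -6.004 ± 0.93. Fabp4, a fatty acid carrier of endothelium and fat cells, stood at 287.13, 454.75 and 340.83 FPKM in Cxcl10-/- and at 27.98, 3.59 and 28.69 in Cxcr3-/- (-4.15 ± 0.67). All 3 genes had the Cxcl10-/- libraries far above the other 6. Other defining endothelial genes did not pass the test: Cdh5, which encodes VE-cadherin, differed by -3.46 (edgeR adjusted p = 0.0942), Kdr, a VEGF receptor gene, by -1.84 (0.118) and Pecam1 by -0.38 (0.719). Lyve1 was at 0 in all Cxcl10-/- libraries, but at most at 0.23 FPKM in any other library.

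Among stromal genes Sparc, a matrix protein gene, stood at 57.03, 102.84 and 54.88 FPKM in Cxcl10-/- and at 1.38, 0.2 and 0.8 in Cxcr3-/- (-6.92 ± 0.79). Cxcl12, the chemokine that holds HSCs in the marrow, was uneven among the Cxcl10-/- libraries, at 14.06, 118.93 and 10.81 FPKM, and stood at 0.11, 0 and 0.24 in Cxcr3-/- (-8.02 ± 1.44). DESeq2 gave Cxcl12 no adjusted p and so did not call it. Ibsp, the bone sialoprotein gene, had a ratio of 1109 between the groups (95% counting interval 379 to 5382), resting on 3 counts in Cxcr3-/-. Apoe, which WT expresses as well, was lower by -1.04 ± 0.19. The bone cell genes Bglap, Bglap2 and Sp7 and the smooth muscle gene Acta2 were at 0 in all Cxcl10-/- libraries. None of these genes passed 0.14 FPKM in any of the 9 libraries, so their zeros do not set Cxcl10-/- apart. Stab1, Stab2, Fabp4, Sparc, Ibsp, Cxcl12 and Apoe kept their calls in each of the 9 fits with 1 library left out, while those of the other 8 endothelial and 4 stromal genes did not. Without Cxcr3-/- replicate 1, 2 or 3 the endothelial count was 5, 5 or 4, and without Cxcl10-/- replicate 2 it was 7. With Cxcr3-/- replicate 2 alone 2 endothelial genes and 1 stromal gene were called, with medians of -2.54 and -4.01. The stromal count was 4 without Cxcr3-/- replicate 3 and 11 without Cxcl10-/- replicate 3.

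Markers of other blood cells are given beside these values. The summed FPKM of 20 monocyte and macrophage genes was 241 to 432 in Cxcr3-/-, 479 to 516 in Cxcl10-/- and 600 to 717 in WT. Of 11 tested, 3 were lower in Cxcr3-/- and 0 higher (all tested genes 5.41% and 5.1%), with a median of -0.57. Among them were Vcam1, also on the stromal list (-3.04), and the macrophage gene Mrc1 (-2.58), whose calls each ended in some fit with 1 library left out. Adgre1, which encodes F4/80, was not tested and was at 0 in Cxcl10-/-, but at most at 0.32 FPKM in any other library. Erythroid genes summed to 949 to 1079 FPKM in Cxcr3-/- and 587 to 1183 in Cxcl10-/-. Of 11 tested, 3 were lower in Cxcr3-/-, all globin genes, and 1 was higher (Car2, carbonic anhydrase 2, 1.03). The globin gene Hba-a1 stood at 3.07, 2.18 and 3.4 FPKM in Cxcr3-/- and at 27.61, 133.48 and 49.93 in Cxcl10-/- (-4.57 ± 0.71); its near-identical copy Hba-a2 makes the division of reads between them uncertain. Of 4 tested B cell genes, 4 T and NK cell genes, 5 neutrophil genes and 1 mast cell gene, 0 were called by edgeR, 6 had an unadjusted p under 0.05, limma called 1 and DESeq2 called 4. Of 18 T and NK cell genes 10 were at 0 in Cxcl10-/-, 9 in WT and 5 in Cxcr3-/-. The part that cells of other types have in the differences above was not tested.

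**Figure D4:**
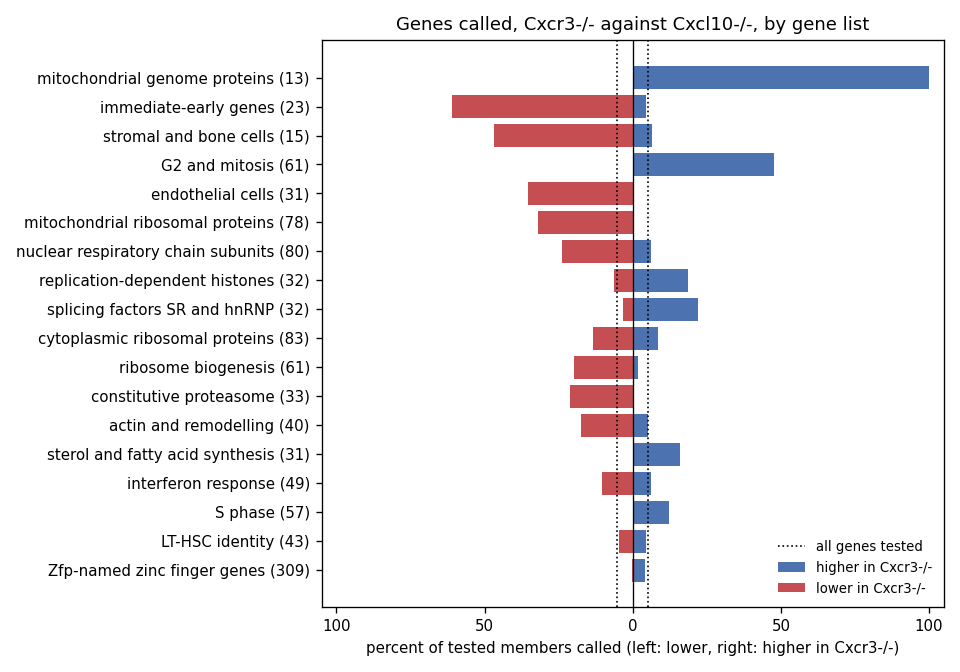
For 18 gene lists, the percent of tested members called lower (bars to the left) and higher (bars to the right) in Cxcr3-/- than in Cxcl10-/- by edgeR; dotted lines mark the 5.41% and 5.1% of all tested genes. The 13 mitochondrial genome genes reach 100% on the right, and immediate-early, endothelial, stromal and mitochondrial ribosomal genes lie mostly on the left.

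Genes were next named by the size of their difference. Among 862 genes called by edgeR and limma in the same direction that did not overlap and reached 5 FPKM in either knockout, the 15 largest that were higher in Cxcr3-/- were led by Cxcl10 itself. As the gene deleted in the other group, it had to differ where expressed. Cell division genes made up most of the rest: Nusap1, Ccnb1, Anln, Knl1, Aurkb (a mitotic kinase gene, 3.25), Melk (a proliferation-linked kinase gene, 3.13), Pimreg (a mitotic regulator gene, 5.01) and Gpsm2 (a spindle orientation gene, 4.06), beside the histone genes H2ac4 and H2bc18. Glcci1 was higher by 4.06. Xlr3a, an X-linked gene with near-identical copies, stood at 12.59, 3.4 and 9.77 FPKM in Cxcr3-/- against 0.11, 0.05 and 0 in Cxcl10-/- and 1.2, 0 and 0.25 in WT. Olfr774 stood at 41.03, 7.53 and 64.17 FPKM, and both genes were thus highest in Cxcr3-/- replicates 1 and 3. Xlr3a averaged under 1 FPKM in Cxcl10-/- and WT and was tested only through Cxcr3-/-.

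Without Cxcr3-/- replicate 1 the calls of H2bc18, Xlr3a, Glcci1, Gpsm2 and Aurkb ended (edgeR adjusted p = 0.0614 to 0.084), and without Cxcr3-/- replicate 3 they ended too (0.0545 to 0.0645). Of the 15, 9 kept their calls in all 9 such fits.

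The 15 largest that were lower in Cxcr3-/- held Fos, Stab1, Stab2, Sparc, Ibsp and Cxcl12, described above, and further genes that Cxcr3-/- libraries barely expressed. Except for Sparc and Ly6c1, all 15 averaged under 1 FPKM in both Cxcr3-/- and WT. They were tested only through the Cxcl10-/- libraries and had to differ, so their values and calls are descriptions. Crip2, a LIM domain protein gene, had 0 counts in Cxcr3-/- and stood at 16.87, 7.48 and 27.66 FPKM in Cxcl10-/-, at least 347-fold higher there. Serping1, which encodes the complement C1 inhibitor, had a ratio of 391 between the knockouts (95% counting interval 108 to 3230), Il13ra2, a decoy receptor gene, of 231 (63.6 to 1912), and Ly6c1, an endothelial surface antigen gene, of 310 (85.4 to 2561). Fosb differed by -6.62, Rarres2, which encodes chemerin, by -6.43, the potassium channel gene Kcnj8 by -6.42, Adh6b by -6.32 and the death-associated kinase gene Dapk2 by -6.02. Calls of 6 of the 15 ended in some fit with 1 library left out. Crip2 lost its call without Cxcr3-/- replicate 1 or 3 (edgeR adjusted p = 0.0586 and 0.0518), and Dapk2 likewise (0.0767 and 0.0824). Fosb lost it without Cxcr3-/- replicate 1 (0.0513), and Rarres2 without Cxcl10-/- replicate 2 or Cxcr3-/- replicate 2 or 3 (up to 0.0767). Ly6c1 lost it without any 1 Cxcr3-/- library or Cxcl10-/- replicate 3 (up to 0.101), and Adh6b in 6 of the fits (up to 0.15). With no library left out, DESeq2 did not call Rarres2 (DESeq2 adjusted p = 0.072).

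The 5 genes with the largest fall in absolute FPKM without the receptor were Ubb, Ftl1, Eef1a1, Lsm7 and Rps6; the 5 with the largest rise were mitochondrial. Ubb, a polyubiquitin gene, stood at 1113, 2371.2 and 1849.8 FPKM in Cxcr3-/-, at 5467.8, 6267.4 and 6852.9 in Cxcl10-/- and at 3401.5, 2671.7 and 2846.1 in WT (-1.71 ± 0.22, edgeR adjusted p = 0.00146). WT lay between the knockouts, above all Cxcr3-/- libraries. Eef1a1, the translation elongation factor gene, stood at 3113.6, 3183.2 and 3444.1 FPKM against 4735.3, 4866.6 and 5331.7 (-0.59 ± 0.09), with WT near Cxcr3-/-. Lsm7, of the spliceosome and mRNA decay machinery, was lower by -1.21, the ribosomal gene Rps6 by -0.56 and Ftl1, the ferritin light chain gene, by -1.01. The call of Ftl1 ended without Cxcl10-/- replicate 2 (edgeR adjusted p = 0.0517) or Cxcr3-/- replicate 3 (0.0771), and those of Ftl1 and Rps6 ended with the GC trend removed.

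Lists of protein synthesis and turnover are set here against the 5.41% of all tested genes that were lower and the 5.1% that were higher. Of 33 constitutive proteasome genes 7 were lower and 0 higher (median -0.39), and 4 were lower without Cxcr3-/- replicate 1. The ATPase gene Psmc5 stood at 26.88, 37.97 and 26.58 FPKM in Cxcr3-/- and at 96.19, 131.45 and 105.75 in Cxcl10-/-, with WT at 39.92, 28.33 and 41.2 (-1.83 ± 0.25). Psmc3 (-1.14), Psma7 (-1.03) and Psmb6 (-0.83) followed. Of 61 ribosome biogenesis genes 12 were lower, Nop16 (-1.66) and Rrp1b (-2.48) among them, and 1 was higher (Nop10, 0.66), with a median of -0.30. The number lower was 3, 7 or 5 without Cxcr3-/- replicate 1, 2 or 3 and 7 without Cxcl10-/- replicate 3, and 2 of the 13 calls held in every fit with 1 library left out. Cytoplasmic ribosomal protein genes split: 7 of 83 were higher and 11 lower, with a median of -0.05, equal to that of all genes. Rps3, of the small subunit, stood at 543.97, 596.78 and 605.75 FPKM in Cxcr3-/- and at 937.46, 1060.5 and 1122 in Cxcl10-/- (-0.81 ± 0.12), while Rpl39, the smallest protein of the large subunit, stood at 1327.5, 992.94 and 1232.3 against 696.15, 527.12 and 561.25 (1.02 ± 0.15). Of 43 translation initiation factor genes 5 were lower and 2 higher, of which only the number higher was near the background. The number lower was 2 without Cxcr3-/- replicate 1. Eif4g2, an eIF4G-like factor gene, was higher by 0.90. Splicing factor genes of the SR and hnRNP families were called mostly higher, with 7 of 32 higher and 1 lower (Hnrnpc, -0.59) and a median of 0.32, which was 0.08 with the GC trend removed. The number higher was 3 without Cxcr3-/- replicate 1 or 3 and 4 without Cxcl10-/- replicate 2. Hnrnpll, a regulator of splicing in blood cells, stood at 34.31, 30.66 and 30.41 FPKM against 6.55, 8.75 and 10.23 (1.92 ± 0.26).

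Genes in which Cxcr3-/- stood apart from both other genotypes were few, 49 of the 1142, and 31 of them were lower. None of the 49 was called against WT by edgeR, which called 0 of the 10866 tested genes there. By adjusted p they were led by Il2rg, which encodes the gamma chain shared by the receptors of interleukin 2, 7, 15 and others. Il2rg stood at 57.24, 104.75 and 93.84 FPKM in Cxcr3-/-, at 270.05, 216.54 and 244.07 in Cxcl10-/- and at 194.28, 169.56 and 153.91 in WT. All Cxcr3-/- libraries thus lay below all others. The difference was -1.50 ± 0.24 from Cxcl10-/- (edgeR adjusted p = 0.00374) and -1.08 from WT (0.552). Il2rg also lies near Cxcr3 on the X chromosome. Of 12 tested genes of that region 1 other was called, Nono, an RNA-binding protein gene, which was higher (0.75 ± 0.14). That made 16.7% of the region called, against 10.5% of all tested genes. Of 15 tested genes around Cxcl10 on chromosome 5, 3 were higher in Cxcr3-/- and 0 lower (all tested genes 5.1% and 5.41%). They were the cyclin-like genes Ccni (1.14 ± 0.17) and Ccng2 (1.92 ± 0.31), and G3bp2, a stress granule gene (0.79 ± 0.19). The call of G3bp2 ended without Cxcr3-/- replicate 1 (edgeR adjusted p = 0.0757) or 3 (0.0766).

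The largest of this class that were higher were Psd3 (1.35), Tmem185b (1.15), Nucks1 (1.01), Rnf44 (0.94) and Ybx3 (0.85), and the largest that were lower were Ercc1 (-2.45), Snap47 (-2.07), Ube4a (-1.84), Fibp (-1.74) and Cd320 (-1.68). Nucks1, a chromatin protein gene, stood at 81.78, 51.41 and 66.51 FPKM in Cxcr3-/-, at 30.91, 38.73 and 33.63 in Cxcl10-/- and at 33.89, 42.71 and 42.19 in WT (1.01 ± 0.18). Snap47, a SNARE protein gene, stood at 7.96, 6.18 and 3.01 FPKM in Cxcr3-/-, at 38.14, 16.79 and 18.9 in Cxcl10-/- and at 12.85, 14.79 and 14.96 in WT (-2.07 ± 0.43). Both kept their calls in every fit with 1 library left out, as did Il2rg. Calls of the other 8 ended without Cxcr3-/- replicate 1 (edgeR adjusted p = 0.0644 to 0.134) and without Cxcr3-/- replicate 3 (0.0521 to 0.116), and the number of genes in the class ran from 7 to 110 over the 9 fits. With Cxcr3-/- replicate 2 alone 1 gene was in it, and Il2rg, Nucks1 and Snap47 had adjusted p-values of 0.11, 0.296 and 0.275 in edgeR.

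**Figure D5:**
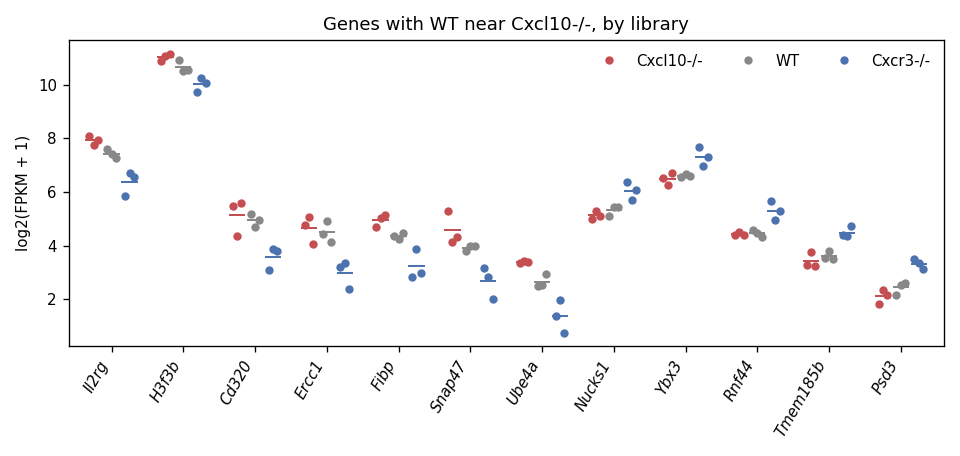
FPKM by library of 12 genes called between the knockouts with WT near Cxcl10-/-: the 10 chosen by size, and Il2rg and H3f3b, the 2 of lowest adjusted p, added after their values were seen. Dots are libraries, 3 per genotype, and lines are means; Cxcr3-/- lies apart from both other genotypes, above them for Nucks1 and below them for Il2rg.

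The genes used to sort the cells, and those that mark HSC identity, were looked at next. The list of 6 genes held Cd34 beside the sort markers, although CD34 is not part of the sort as described. Of the 6, 2 were called (33.3%, against 10.5% of all tested genes). These were Kit and Cd34, so Kit was the only marker of the described sort that was called. Kit, the stem cell factor receptor gene, stood at 126.89, 109.17 and 110.29 FPKM in Cxcr3-/-, at 81.44, 72.3 and 45.76 in Cxcl10-/- and at 98.07, 109.76 and 106.23 in WT (0.83 ± 0.17, edgeR adjusted p = 0.0133). Its call ended without Cxcr3-/- replicate 1 (0.0506, in a range of 0.0075 to 0.0506). Cd34 was higher by 0.79 ± 0.23, and its call ended in 7 of the 9 fits (up to 0.119). Slamf1, which encodes CD150, differed by 2.01 and missed the threshold (edgeR adjusted p = 0.0866), at 5.65, 9.24 and 7.43 FPKM against 0.69, 0.71 and 4.12. Ly6a, which encodes Sca-1, differed by -0.37, and Flt3, which encodes CD135 and was sorted against, by -0.43. Cd48, also sorted against, stood at 7.24, 19.55 and 0.18 FPKM in Cxcr3-/-, at 0, 7.94 and 0 in Cxcl10-/- and at 17.84, 20.12 and 8.76 in WT, so the knockouts overlapped.

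Of 43 HSC identity genes 4 were called (9.3%), near the 10.5% of all tested genes: 2 were higher, Zfp36l2 (0.47) among them, and 2 lower (Sult1a1, -1.94, and Nkx2-3, -1.58), with a median of -0.15. Each of the 4 calls ended in at least 2 fits with 1 library left out (edgeR adjusted p up to 0.151). The stem cell transcription factor genes Hlf and Mecom differed by -0.08 ± 0.14 and 0.05 ± 0.25. Of 22 quiescence regulator genes 2 were higher and 3 lower. Rbl1, which encodes the pocket protein p107, stood at 42.87, 27.05 and 25.53 FPKM in Cxcr3-/- and at 11.35, 9.52 and 6.85 in Cxcl10-/- (1.81 ± 0.24). Egr1 and Btg2, of the immediate-early list too, and Stk11, which encodes LKB1 (-1.64), were lower, and Rbl2 (1.01) was higher. Rbl1 and Egr1 kept their calls in all fits with 1 library left out, and the other 3 did not.

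Genes of immune signalling are set against the same background of 5.1% higher and 5.41% lower. Of 49 interferon response genes 3 were higher, near that share, and 5 lower, with a median of -0.21. The largest in each direction were Gbp5, a guanylate-binding protein gene (5.06), and Ubd, an interferon-inducible ubiquitin-like gene (-4.58). Each of the 8 calls ended in some fit with 1 library left out. Of 22 tested NF-kB pathway genes 1 was called: Nfkb1, which encodes p105 and p50, stood at 52.58, 46.87 and 60.1 FPKM in Cxcr3-/- and at 11.53, 19.49 and 24.05 in Cxcl10-/- (1.42 ± 0.26), and kept its call. The median of that list was -0.39 in edgeR and 0.012 in limma. MHC class II genes, whose products present antigen to CD4 T cells, held 2 calls among 10 tested. H2-Aa stood at 99.75, 274.81 and 198.41 FPKM in Cxcr3-/-, at 76.37, 36.45 and 39.34 in Cxcl10-/- and at 63.43, 83.99 and 107.69 in WT (2.09 ± 0.38), and H2-Eb1 was higher by 3.01 ± 0.60. Both had WT between the knockouts and kept their calls. B2m, the light chain gene of MHC class I, stood at 7303.6, 11209 and 9315.7 FPKM against 4761.2, 5034.1 and 4112.5 (1.03 ± 0.14); of the 19 class I genes tested 2 were higher and 3 lower.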

How the data were processed

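The deposited table holds an FPKM and an expected count for each gene and sample. Per the submitters' processing notes the authors used fastp, HISAT2, StringTie and RSEM; versions, genome build and annotation: not given in the sources used here. The authors' FPKM values and the authors' expected counts (87.1% of them whole) came from RNA amplified with the Discover-sc WTA Kit V2, per the labels. No molecular identifier is named, so intervals and floors cover counting error only. Per the design text the replicates are separate mice.

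Expected counts were rounded. edgeR 4.0.16 in R 4.3.3 (TMM factors, quasi-likelihood F test) was fitted to all 9 libraries with 1 mean per genotype, over the 10866 genes that averaged 1 FPKM or more. limma 3.58.1 on log2(FPKM + 1), DESeq2 1.42.0, other scalings and filters, a replicate block, a GC trend and fits with 1 library left out were alternatives. The edgeR and limma scripts were tested on simulated data. WT position is the WT mean's place between the knockout means on the log2 scale.

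The comparison and the 49 gene lists were chosen with earlier results of these data known. Named genes were, by a fixed rule, the deleted genes and their ligands, the 15 largest in each direction among genes called by edgeR and limma without overlap and with at least 5 FPKM in either knockout, up to 5 per WT class and direction, the 5 largest by FPKM in each direction, and list members (up to 4 called and 2 not called by lowest p, and other called members). Predicted genes, pseudogenes and receptor segments were left out of the naming. A few genes that the rule picked are not reported here. Promoters came from RefSeq; 8759 tested genes were matched by symbol.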

Additional observations from a re-analysis of the deposited data

How the results depend on the processing

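The number of calls moved with the model and the libraries. DESeq2 called 1814 genes (859 higher, 955 lower), 1210 with WT next to Cxcr3-/- and 117 with WT next to Cxcl10-/-. limma-voom with 1 weight per genotype called 634 (229 higher), 450 with WT next to Cxcr3-/- and 20 next to Cxcl10-/-, and 15 mitochondrial ribosomal genes; it put the median of all genes at 0.08 (edgeR -0.05). Without a filter 97 genes had WT next to Cxcl10-/-. With the 6 knockout libraries only, 423 were called (192 higher, 231 lower), with 16 genes of G2 and mitosis, 8 nuclear respiratory, 7 mitochondrial ribosomal and 7 endothelial genes. The replicate numbers pair no samples by the labels, and correlations of same-numbered libraries' deviations ran from -0.09 to 0.03. A replicate block, tried all the same, gave 833 calls in place of 1142, with 15 mitochondrial ribosomal and 6 endothelial genes. Over tested genes the log2 difference had a Spearman rho of -0.30 with the GC content of the transcript. With this GC trend removed 930 were called, of which 730 were among the 1142, in the same direction. The median of mitochondrial genome genes was then 1.04 and mt-Nd3 turned to -0.025. As a share of summed FPKM the mitochondrial difference was 10.5 percentage points, against 6.88 of counts. With Cxcr3-/- replicate 2 alone 33 were called (21 higher, 12 lower), 25 with WT next to Cxcr3-/- and 1 next to Cxcl10-/-; counts were 3 in G2 and mitosis, 3 immediate-early, 0 nuclear respiratory, 0 mitochondrial ribosomal (median -0.47), 2 endothelial and 1 stromal (median -4.01). The stromal median was -1.78 in limma and -2.08 with filterByExpr.

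Leaving out 1 library at a time gave 423 to 1407 calls, 214 to 723 higher and 209 to 684 lower, 320 to 996 with WT next to Cxcr3-/- and 7 to 110 next to Cxcl10-/-. Counts ran from 17 to 35 in G2 and mitosis, 12 to 13 of the mitochondrial genome, 6 to 14 immediate-early, 6 to 27 mitochondrial ribosomal, 7 to 19 nuclear respiratory, 4 to 13 endothelial and 4 to 11 stromal. Medians ran from 1.51 to 2.05 in G2 and mitosis, 1.39 to 1.69 of the mitochondrial genome, -2.29 to -1.54 immediate-early, -0.74 to -0.46 mitochondrial ribosomal, -0.32 to -0.14 nuclear respiratory, -2.26 to -1.52 endothelial and -3.76 to -2.35 stromal. The share difference ran from 6.67 to 7.14. The median of NF-kB genes turned to 0.012 and 0.042 in limma (pseudocounts 1 and 0.1) and 0.10 in voom. That of B cell genes turned to 2.32 with filterByExpr and ran from -3.49 to 1.07 with 1 library left out, positive without Cxcl10-/- replicate 3, and that of lymphoid priming genes ran from -0.30 to 0.014, positive without Cxcl10-/- replicate 1. In limma Hells turned to -0.27 and -0.29 and Eif4e to -0.15 and -0.15. Where no value above shows it, the cause was not tested. Depth limits low genes most: 3 counts over a group is the floor behind each lower bound.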

Other observations

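Some lists outside the groups above held a few calls each. Of 31 tested genes of sterol and fatty acid synthesis 5 were higher in Cxcr3-/- and 0 lower (all genes 5.1% and 5.41%), with a median of 0.46. Idi1, an isomerase of the mevalonate pathway, stood at 45.09, 51.86 and 47.08 FPKM in Cxcr3-/-, at 14.24, 7.88 and 8.82 in Cxcl10-/- and at 67.67, 62.9 and 37.11 in WT (2.23 ± 0.29, edgeR adjusted p = 0.00137). Sqle, squalene epoxidase, was higher by 1.53 ± 0.31. Both kept their calls in every fit with 1 library left out, while Nsdhl (1.84), Msmo1 (1.11) and Scd2 (1.04) did not. Megakaryocyte priming genes held 4 calls of 22, all higher: Plek, a platelet kinase substrate gene, stood at 49.28, 43.92 and 28.26 FPKM against 14.01, 5.9 and 7.35 (2.19 ± 0.31), and Rap1b, a small GTPase gene, was higher by 0.86 ± 0.14, a call that ended with the GC trend removed.

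Among 35 tested genes of apoptosis and p53, 3 were higher and 1 lower (all tested genes 5.1% and 5.41%). Xiap, a caspase inhibitor gene, stood at 39.13, 30.33 and 30.71 FPKM in Cxcr3-/- and at 14.84, 14.42 and 14.33 in Cxcl10-/- (1.22 ± 0.19). Mcl1, a survival gene of the BCL2 family, stood at 41.33, 31.8 and 44.42 FPKM against 71.99, 79.51 and 71.39 (-0.90 ± 0.18). Both had WT near Cxcr3-/-. Of 46 lysosome and autophagy genes 3 were higher and 3 lower; the protease gene Ctsl was lower by -1.26 and the membrane protein gene Lamp2 higher by 1.08. Olfactory receptor genes, a family chosen after its values were seen, held 17 calls of 36 tested, all higher in Cxcr3-/- (median 2.06). Their CPM (counts scaled to library size) summed to 2475, 695 and 3276 in Cxcr3-/- replicates 1 to 3, 438 to 542 in Cxcl10-/- and 784 to 1037 in WT; members have near-identical copies.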
